A study of Homo sapiens with 6 samples.

Results

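Guidance genes encode the ligands and receptors that steer growing axons, and the same molecules act in blood vessels and epithelia. They were described here in A549-TIPARP and A549-GFP cells. The members were the genes whose symbol in the deposited tables belonged to the Eph receptors (EPHA, EPHB), ephrins (EFNA, EFNB), semaphorins (SEMA), plexins (PLXN), neuropilins (NRP), Slit ligands (SLIT), Robo receptors (ROBO), UNC5 receptors or netrins (NTN). The tables held 68 such genes among 53826 entries. Of these, 39 were above the lowest value of the tables in at least 1 library, and 33 had more than 2 TPM in at least 1 library and were analysed together with all 13181 genes that passed the same filter. TPM is a gene's part of all transcripts in a library, scaled by transcript length, so levels can be compared between genes. The tables list every TPM of 1 or less as 1, which is called the floor below.

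Eph receptors are receptor tyrosine kinases that bind ephrins on the neighbouring cell, and signals pass into both cells. A-type ephrins are held in the membrane by a lipid anchor, whereas B-type ephrins span it. Semaphorins are secreted or membrane-bound ligands of plexins, and most secreted semaphorins need a neuropilin as coreceptor. Slits bind Robo receptors, and netrins bind DCC and UNC5 receptors. In carcinomas, EPHA2 is often abundant, and SEMA3B and SEMA3F lie in a region of the short arm of chromosome 3 that is frequently lost in lung cancer. Neuropilins also bind vascular endothelial growth factors.

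The study compared A549 cells, a human lung adenocarcinoma line, that stably overexpress TIPARP from a pMXs retroviral vector (A549-TIPARP) with A549 cells that stably overexpress GFP from the same kind of vector (A549-GFP). TIPARP is a mono-ADP-ribosyltransferase that is induced by, and represses, the aryl hydrocarbon receptor, and the study asked about its part in tumour-induced vessel growth. Each line had 3 libraries, which the sample titles number as experiments 1 to 3, and the labels give no further treatment or time. Whether a line was 1 clone or a pool of infected cells, and whether the libraries of a line came from separate cultures, was not given in the sources used here. The p-values therefore measure only the spread between these libraries, which may be technical.

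In the order of replicates 1, 2 and 3, as in all lists below, TIPARP itself measured 6.79, 11.4 and 3.68 TPM in the control line and 131, 90.5 and 123 TPM in the line that carries it, in the direction of the labels. All 5 epithelial markers (EPCAM, CDH1, KRT8, KRT18, KRT19) were above the floor, with sums of 8341 to 21244 TPM in A549-GFP and 16520 to 19963 TPM in A549-TIPARP. Most of each sum was KRT8 and KRT18, whereas KRT19 was at 4.57, 2.54 and 5.36 TPM in A549-GFP and at 19.2, 18.98 and 10.9 TPM in A549-TIPARP, with no overlap (limma adjusted p = 0.283). All 6 endothelial markers, the leukocyte markers PTPRC and CD3E and 5 of 6 fibroblast markers were at the floor in every library. LUM, the remaining fibroblast marker, reached 1.09 TPM in A549-GFP replicate 2, and the third leukocyte marker, CD68, stood between 25.0 and 68.1 TPM. The 4 neuronal markers (RBFOX3, SNAP25, SYT1, MAP2) summed to between 18.0 and 44.7 TPM in A549-GFP and between 17.9 and 37.5 TPM in A549-TIPARP. A549-GFP replicate 2 stood apart, with KRT8 at 3855 TPM and KRT18 at 4176 TPM against at least 6959 and 9272 TPM in the other libraries. The depth of the libraries is unknown, since TPM holds none.

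A549-GFP replicate 2 also stood apart in the guidance genes. Over the 33 analysed members, its log2 TPM was a median of 0.69 above the mean of the other A549-GFP libraries, compared with 0.38 over all analysed genes, and it was above that mean in 30 of 33. It was the highest of the 6 libraries for 18 members (54.5%), as it was for 52.0% of all analysed genes. A549-GFP replicate 3 was the lowest for 15 members (45.5%), and for 34.1% of all analysed genes. The SD of log2 TPM was larger in A549-GFP than in A549-TIPARP for 29 of 33 members, with medians of 0.48 and 0.20, and for 79.6% of all analysed genes, with medians of 0.39 and 0.19. The plot of each library against the mean shows this library and the genes that go against it. The exceptions were PLXND1 and SEMA6B, which were lowest in A549-GFP replicate 2 among all 6 libraries, and SEMA3F, which was at the floor in the whole control line. The main counts over the members, and the counts of higher means and of separated genes among the semaphorins and the pathway partners, are therefore also given without this library.

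**Figure D1:**
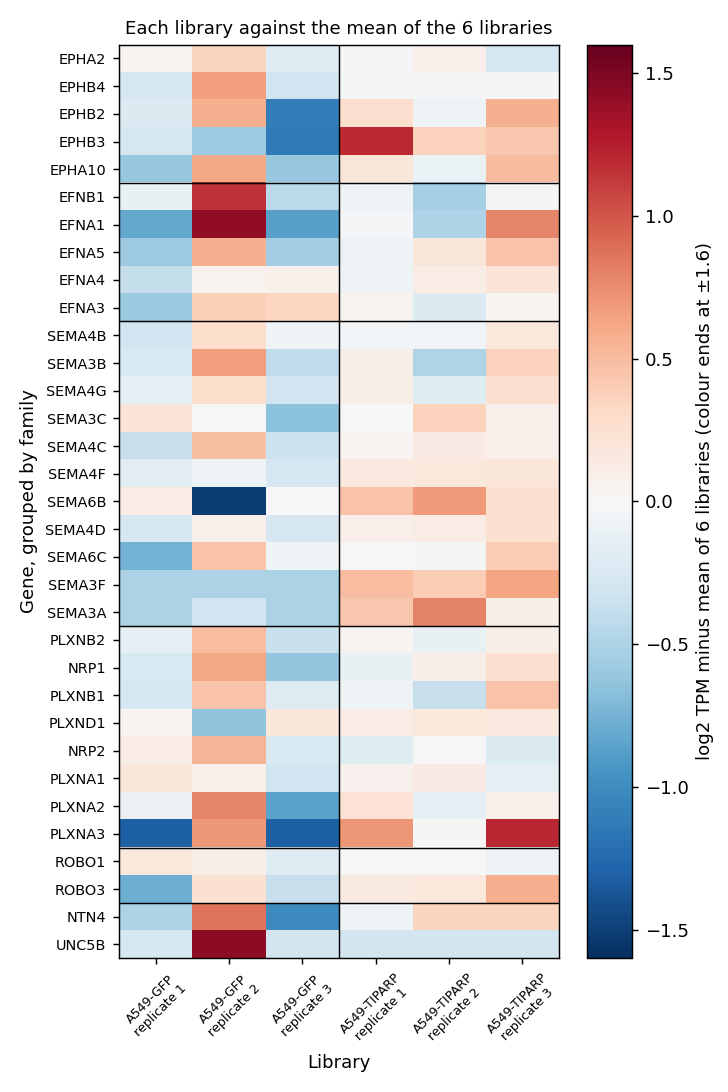
Each row is 1 of the 33 analysed guidance genes, grouped by family and ordered by mean TPM, and each column is 1 of the 6 libraries. Colour gives the log2 TPM minus the mean of the 6 libraries, red above and blue below; A549-GFP replicate 2 is the highest library in 18 of the 33 rows.

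The members past 2-fold were EPHB3, PLXNA3 and SEMA3F, from different families. The sequences upstream of these genes are shown so that their composition can be read beside the values. Each is the 250 bases that precede the transcription start listed farthest upstream in RefSeq on GRCh38.p14, read 5′ to 3′ on the plus strand, the strand of all 3 genes. They lie at chr3:184561535-184561784 for EPHB3, chrX:154458031-154458280 for PLXNA3 and chr3:50154808-50155057 for SEMA3F. Capitals mark the GC box GGGCGG on either strand (CCGCCC on the strand shown), and matches that overlap by a base were each counted.
EPHB3: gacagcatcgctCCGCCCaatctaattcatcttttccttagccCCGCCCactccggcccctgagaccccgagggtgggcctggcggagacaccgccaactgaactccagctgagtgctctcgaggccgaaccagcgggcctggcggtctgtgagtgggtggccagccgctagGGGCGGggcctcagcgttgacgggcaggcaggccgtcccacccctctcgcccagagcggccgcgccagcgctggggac
PLXNA3: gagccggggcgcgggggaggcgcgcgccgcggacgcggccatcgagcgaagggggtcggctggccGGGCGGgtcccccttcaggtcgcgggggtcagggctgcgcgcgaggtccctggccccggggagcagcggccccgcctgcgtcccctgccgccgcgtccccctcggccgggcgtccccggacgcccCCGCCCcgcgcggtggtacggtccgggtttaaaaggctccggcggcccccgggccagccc
SEMA3F: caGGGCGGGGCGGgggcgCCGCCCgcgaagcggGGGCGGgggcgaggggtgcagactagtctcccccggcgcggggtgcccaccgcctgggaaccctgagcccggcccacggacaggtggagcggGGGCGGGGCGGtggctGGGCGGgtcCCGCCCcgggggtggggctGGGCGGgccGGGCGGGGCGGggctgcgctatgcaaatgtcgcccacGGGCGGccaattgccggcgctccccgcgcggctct

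The EPHB3 window was 70.0% G or C with 21 CpG and 3 GC boxes. The PLXNA3 window was 82.8% G or C with 41 CpG and 2 GC boxes, and the SEMA3F window was 82.0% G or C with 34 CpG and 12 GC boxes. A window was matched for 28 of the 33 analysed members, of which 24 (85.7%) held a GC box, compared with 67.3% of 9770 analysed genes and 42.2% of 27305 genes with a window. The median G or C content of the windows was 70.8% in the members, 64.8% in the analysed genes and 57.6% in all genes. The core of the dioxin response element, GCGTG on either strand, which the aryl hydrocarbon receptor binds, was absent from all 3 windows shown. It occurred in the windows of 10 of 28 members (35.7%), in 45.8% of the analysed genes and in 31.9% of all genes. A match describes the letters of the window and not a binding site.

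Across the 33 analysed members, the mean was higher with the TIPARP transgene in 25 (75.8%, against 40.1% of all genes) and lower in 8. None changed by the test. In limma on log2(TPM + 1) with Benjamini-Hochberg adjustment over all 13181 genes, two-sided, the lowest adjusted p of a member was 0.852, for EPHB3. That fit called 0.00759% of all genes higher and 0.00759% lower, 1 gene each way. An unadjusted p under 0.05 was reached by 3 members, EPHB3, SEMA3F and SEMA3A, all with the higher value in A549-TIPARP, against 2.97% of all genes in that direction. No member reached it with the lower value in A549-TIPARP, where 0.88% of all genes did. SEMA3F and SEMA3A had passed the filter on TPM only through A549-TIPARP, which favoured a higher value there. With TPM above 2 in at least 3 libraries, limma gave 1 member an unadjusted p under 0.05 with the higher value in A549-TIPARP, against 2.82% of all genes.

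More than 2-fold higher in the mean deposited log2 value were 3 of 33 members, EPHB3, PLXNA3 and SEMA3F, against 1.53% of all genes, and none was more than 2-fold lower, against 0.432%. In 6 members, EPHB3, SEMA3A, SEMA3F, SEMA4D, SEMA4F and SEMA6B, all A549-TIPARP libraries lay above all A549-GFP libraries, an order found in 5.36% of all genes. The opposite order was found in no member and in 3.54% of all genes. The median log2 fold change of the members was 0.17, compared with -0.07 over all analysed genes, and 27 of 33 members (81.8%) were within 1.5-fold, compared with 91.3% of all genes. SEMA3A and SEMA3F passed the filter on TPM only through A549-TIPARP and UNC5B only through A549-GFP, so that a difference in that direction was favoured by the filter, whereas with all libraries the other 30 members passed it in both lines. Exact permutation of 3 libraries against 3 cannot give a two-sided p under 0.1 for a single gene.

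Without A549-GFP replicate 2, 31 of 32 members had the higher mean in A549-TIPARP (96.9%, against 56.7% of all genes), and the median log2 fold change was 0.40, against 0.046 over all genes. In that comparison 19 members were separated upwards, against 21.5% of all genes, while the same 3 members were past 2-fold, against 3.00% of all genes. Of those 19, EPHA10, PLXNA3, ROBO3, SEMA3A and SEMA3F were above 2 TPM only in A549-TIPARP once this library was left out, so that the filter favoured their separation. Within 1.5-fold were 22 of 32 members (68.8%), against 88.0% of all genes. The limma fit without this library gave 11 members an unadjusted p under 0.05 with the higher value in A549-TIPARP, against 9.52% of all genes, and none an adjusted p under 0.05, the lowest being 0.115. PLXNA3, ROBO3, SEMA3A and SEMA3F, among those 11, were likewise above 2 TPM only in A549-TIPARP, which favoured their difference. Without A549-GFP replicate 3 the counts moved the other way, to 19 of 33 members with the higher mean (57.6%, against 32.0% of all genes), a median of 0.034, against -0.17 over all genes, and 3 members separated downwards, against 23.6% of all genes. The size of the difference over the members thus moved with the A549-GFP libraries used. RNA of a whole culture was measured, so fewer cells that express a gene and less of its RNA per cell cannot be told apart.

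**Figure D2:**
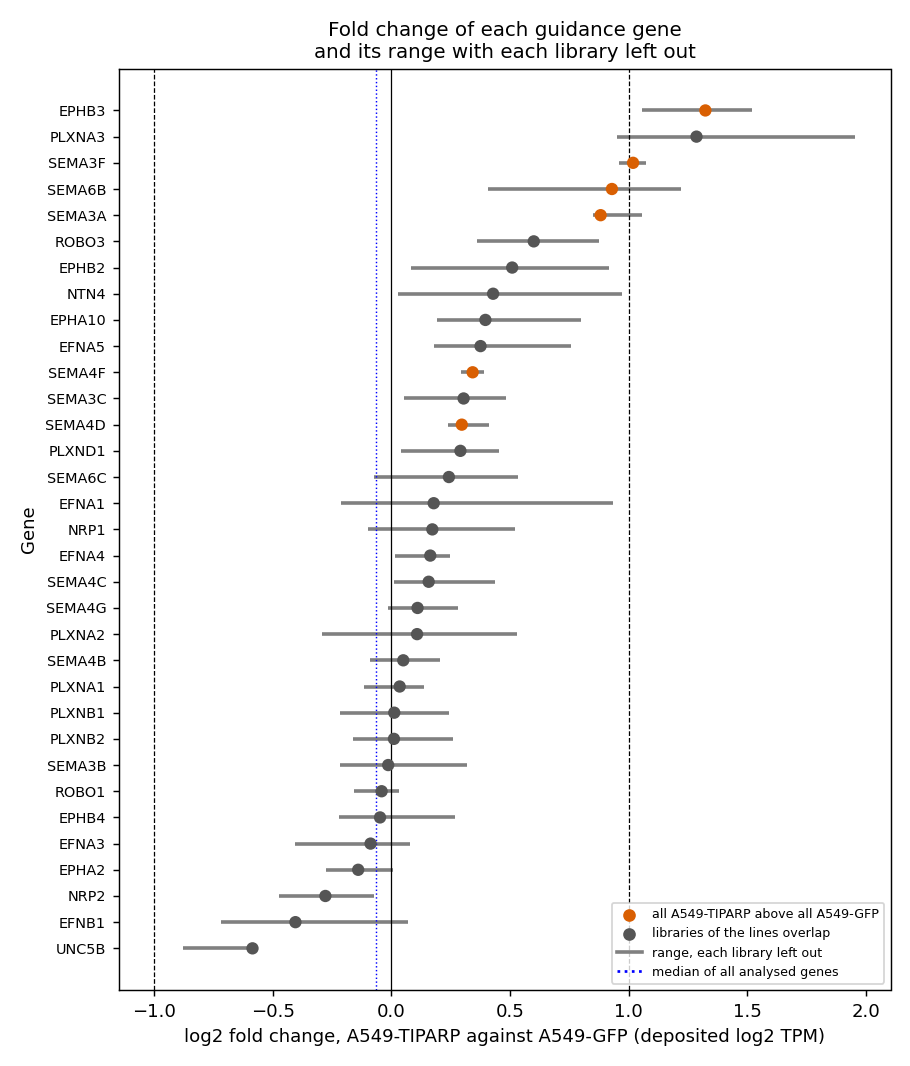
Points give the log2 fold change of the 33 analysed guidance genes, A549-TIPARP against A549-GFP (3 libraries each), from the deposited log2 TPM, and bars the range when each library is left out in turn. Dashed lines mark 2-fold and the dotted line the median of all analysed genes, -0.07; EPHB3 is the gene at the top, at 1.32, with a range from 1.06 to 1.52.

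Among the Eph receptors, 14 were listed, 7 were above the floor and 5 were analysed. EPHA2 and EPHB4 were the abundant ones and had close means in the lines, whereas the low-level receptor EPHB3 had the largest fold change of all members as listed. EPHA2, the ephrin-A receptor best known from carcinomas, was at 70.4, 87.1 and 58.9 TPM in A549-GFP and at 67.1, 71.5 and 56.3 TPM in A549-TIPARP. EPHB4, whose main ligand is EFNB2, was at 43.98, 83.2 and 42.2 TPM in A549-GFP and at 51.4, 52.3 and 52.0 TPM in A549-TIPARP. The lines overlapped in both genes, with log2 fold changes of -0.14 and -0.05. Their limma differences on log2(TPM + 1) had 95% intervals from -0.60 to 0.32 for EPHA2 and from -0.65 to 0.56 for EPHB4.

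EPHB3 is a receptor of B-type ephrins that is known from the sorting of epithelial cells in the intestine. It was at 2.40, 1.92 and 1.32 TPM in A549-GFP and at 6.59, 3.71 and 3.87 TPM in A549-TIPARP. The lines did not overlap, A549-TIPARP being the higher. The log2 fold change was 1.32, or 2.502-fold, and the limma difference on log2(TPM + 1) was 0.97 ± 0.27 (SE, n = 3 per line, unadjusted p = 0.00621, adjusted p = 0.852). With 1 library left out at a time its log2 fold change stayed between 1.06 and 1.52, past 2-fold in each case. EPHB3 spans chr3:184561785-184582408 on the plus strand (hg38, GENCODE 44), and no exon of another gene was annotated over its exons.

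EPHB2, a further receptor of B-type ephrins, was at 3.80, 6.54 and 2.06 TPM in A549-GFP and at 5.35, 4.18 and 6.57 TPM in A549-TIPARP. A log2 fold change of 0.51 came with an SD of 0.84 in A549-GFP, and the lines overlapped. EPHA10, a receptor without kinase activity, stayed under 2.4 TPM in every library and was at the floor in A549-GFP replicates 1 and 3. EPHA1 in A549-GFP replicate 2 (1.30 TPM) and EPHB6 in A549-TIPARP replicate 3 (1.13 TPM) were above the floor in 1 library only. EPHA3, EPHA4, EPHA5, EPHA6, EPHA7, EPHA8 and EPHB1 were at the floor throughout. The TPM of all Eph receptors above the floor summed to 121, 181 and 104 in A549-GFP and to 132, 133 and 121 in A549-TIPARP.

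EFNA1 had the widest spread of all analysed members among A549-GFP libraries, with an SD of 1.31 in log2 TPM. Of 8 ephrins, 6 were above the floor and 5 were analysed, all of them within 1.5-fold, as were 91.3% of all genes. Without A549-GFP replicate 2, 3 of the 5 were within 1.5-fold, against 88.0% of all genes. EFNA1, the main ligand of EPHA2, was at 12.9, 61.0 and 12.5 TPM in A549-GFP and at 22.4, 16.2 and 39.2 TPM in A549-TIPARP. Replicate 2 of A549-GFP held the highest value and its other replicates the lowest, so that the log2 fold change of 0.18 became 0.93 without that library and -0.21 without A549-GFP replicate 3. EFNB1, an ephrin-B that binds EPHB2 and EPHB3, was at 27.2, 66.0 and 22.1 TPM in A549-GFP and at 28.6, 20.5 and 29.3 TPM in A549-TIPARP. For EFNB1 the log2 fold change was -0.40 with all libraries and 0.072 without A549-GFP replicate 2.

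EFNA5, which binds several EphA receptors, had the largest positive value of the family with all libraries, 0.38 in log2 with overlap of the lines. This value was 0.76 without A549-GFP replicate 2, but 0.18 without replicate 1 and 0.19 without replicate 3 of that line. The levels of EFNA5 were 8.198, 18.3 and 8.36 TPM in A549-GFP against 11.6, 14.0 and 16.8 TPM in A549-TIPARP. EFNA4 (9.74 to 13.4 TPM against 12.1 to 14.6 TPM) and EFNA3 (3.65 to 7.16 TPM against 4.73 to 5.70 TPM) had log2 fold changes of 0.16 and -0.09. EFNA4, EFNA3 and EFNA1 follow each other on chromosome 1, with gaps of 9.3 and 40.3 kb, and a read-through gene, EFNA4-EFNA3, shares exons with the first 2, so how reads were split between them is uncertain. EFNA2 reached 1.26 TPM at most. EFNB2, the main ligand of EPHB4, and EFNB3 were at the floor in every library.

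Of the semaphorins, the largest family, 10 of the 11 analysed had the higher mean in A549-TIPARP, against 40.1% of all genes, and 5 were separated, against 5.36%. Of these 5, SEMA3A and SEMA3F were analysed only because of their level in A549-TIPARP. Without A549-GFP replicate 2, all 11 had the higher mean, against 56.7% of all genes, and 8 were separated, against 21.5%. SEMA3A and SEMA3F, among those 8, were again above 2 TPM only in A549-TIPARP. Without A549-GFP replicate 3, SEMA3B and SEMA4G had the lower mean, with log2 fold changes of -0.22 and -0.015. The semaphorins separated upwards were then the same 5 as with all libraries, against 7.22% of all genes. Of 20 semaphorins in the tables, all 11 above the floor were analysed. The most abundant ones had close means. SEMA4B, a membrane semaphorin, was at 42.8, 64.5 and 50.8 TPM in A549-GFP and at 51.2, 51.1 and 59.5 TPM in A549-TIPARP, a log2 fold change of 0.05. SEMA3B, a secreted semaphorin, was at 37.6, 71.1 and 33.9 TPM in A549-GFP and at 47.8, 32.0 and 57.5 TPM in A549-TIPARP, a log2 fold change of -0.01. SEMA4G, a further membrane semaphorin, ranged from 33.9 to 51.0 TPM in A549-GFP and from 36.6 to 50.5 TPM in A549-TIPARP. In these 3 genes the lines overlapped.

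SEMA3F is a secreted semaphorin that binds NRP2. It was listed at the floor throughout A549-GFP and at 2.01, 1.88 and 2.20 TPM in A549-TIPARP. The log2 difference of 1.02 from the floor is a lower bound, because any lower TPM in A549-GFP would have been listed as 1. In limma the difference was 0.60 ± 0.19 on log2(TPM + 1) (SE, n = 3 per line, unadjusted p = 0.0135, adjusted p = 0.966). Without A549-TIPARP replicate 3 this lower bound was 0.96. SEMA3F spans chr3:50155045-50189075, 78.5 kb before SEMA3B, and SEMA3F-AS1 overlaps its exons on the other strand. Although the library kit keeps strand, it was not given whether the quantification used it, so reads of the antisense gene cannot be told apart from those of SEMA3F. An antisense gene overlapped the exons of 8 analysed members, SEMA3F, EPHB2, EPHB4, NRP1, NRP2, PLXNA3, SEMA3B and SEMA4G, and the same limit holds for each.

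SEMA3A, the secreted semaphorin that binds NRP1, was at the floor in A549-GFP replicates 1 and 3 and at 1.14 TPM in replicate 2, and at 1.92, 2.47 and 1.51 TPM in A549-TIPARP. The lines did not overlap, with a log2 fold change of 0.88, a lower bound because of the control libraries at the floor. The limma difference was 0.52 ± 0.21 on log2(TPM + 1) (SE, unadjusted p = 0.0376, adjusted p = 0.994). SEMA3C, a further secreted semaphorin, was at 25.5, 21.9 and 14.1 TPM in A549-GFP and at 22.2, 28.6 and 23.3 TPM in A549-TIPARP, with overlap. SEMA3D, SEMA3E and SEMA3G were at the floor throughout.

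The other separated members were membrane semaphorins, and they are named here because their values were seen not to overlap. SEMA6B was at 5.41, 1.75 and 5.002 TPM in A549-GFP and at 6.85, 8.02 and 5.97 TPM in A549-TIPARP, a log2 fold change of 0.93 that was 0.41 without A549-GFP replicate 2. SEMA4F was at 8.16, 8.72 and 7.59 TPM in A549-GFP and at 10.2, 10.3 and 10.5 TPM in A549-TIPARP, and the difference of 0.34 in log2 TPM stood beside SDs of 0.10 and 0.03. SEMA4D, the ligand of PLXNB1, was at 3.13, 3.98 and 3.12 TPM in A549-GFP and at 3.99, 4.07 and 4.44 TPM in A549-TIPARP, so that A549-GFP replicate 2 lay just under the lowest A549-TIPARP library. In limma with Benjamini-Hochberg adjustment the adjusted p of each of these 3 genes was 0.994. SEMA4C, the ligand of PLXNB2, with 10.8 to 19.5 TPM in A549-GFP and 14.4 to 15.3 TPM in A549-TIPARP, and SEMA6C, with 1.55 to 3.58 and 2.56 to 3.43 TPM, overlapped. SEMA4A, SEMA5A, SEMA5B, SEMA6A, SEMA6D and SEMA7A were at the floor.

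**Figure D3:**
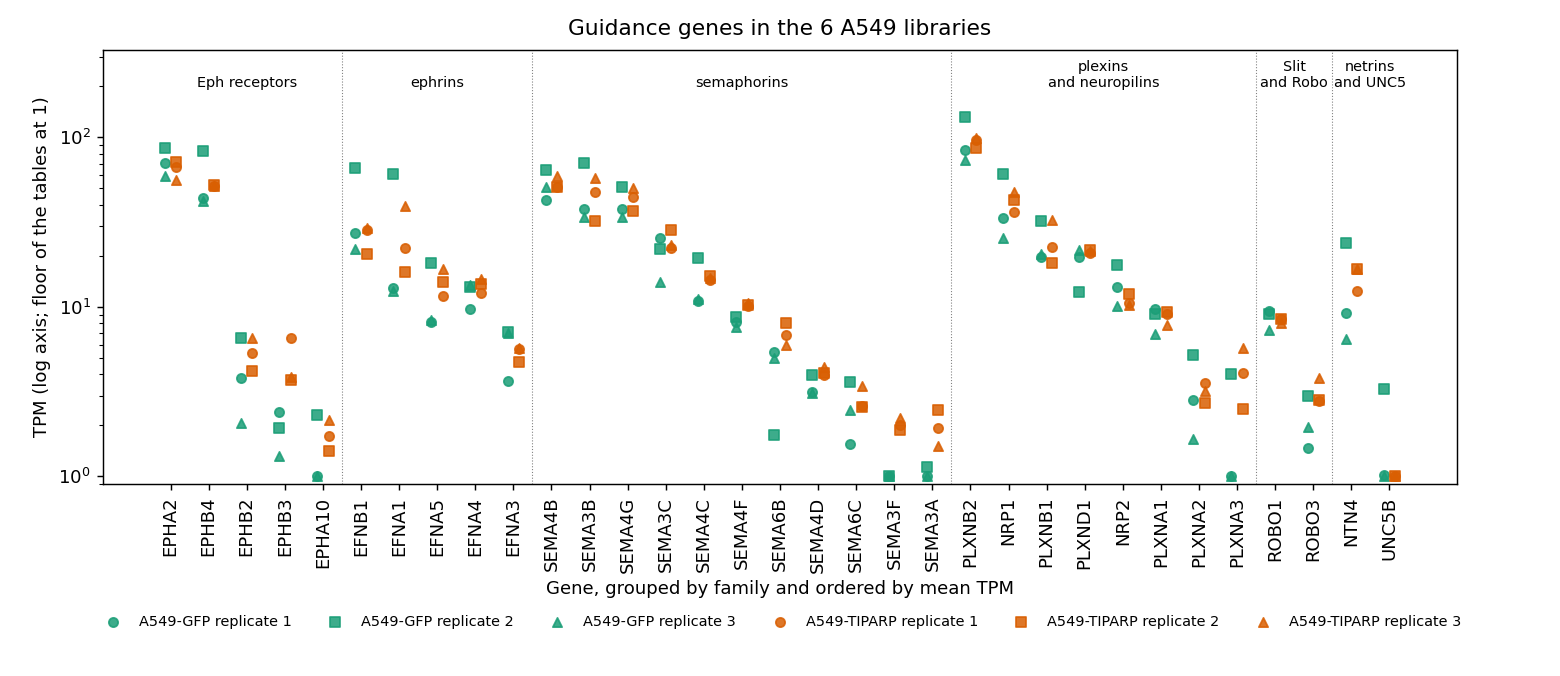
The vertical log axis gives the TPM of each analysed guidance gene in each library, with the floor of the tables at 1. Green symbols are A549-GFP and orange symbols A549-TIPARP, with the same shape for the same replicate number; the members whose lines do not overlap are EPHB3 and the semaphorins SEMA4F, SEMA6B, SEMA4D, SEMA3F and SEMA3A, none of them above 10.53 TPM in any library.

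The abundant receptors of semaphorins had close means in the lines. Of 11 plexins and neuropilins, 9 were above the floor and 8 analysed. PLXNB2, the most abundant guidance gene of all, was at 83.9, 132 and 73.2 TPM in A549-GFP and at 96.4, 86.2 and 99.9 TPM in A549-TIPARP. The limma difference on log2(TPM + 1) was 0.01, with a 95% interval from -0.52 to 0.54. NRP1, a coreceptor of secreted semaphorins and of vascular endothelial growth factors, was at 33.4, 60.6 and 25.6 TPM in A549-GFP and at 36.3, 42.8 and 47.8 TPM in A549-TIPARP. NRP2, the coreceptor of SEMA3F, was at 13.1, 17.6 and 10.1 TPM in A549-GFP and at 10.5, 11.97 and 10.3 TPM in A549-TIPARP. Both neuropilins overlapped between the lines, with log2 fold changes of 0.17 for NRP1 and -0.28 for NRP2. With all libraries, NRP2 was the only analysed plexin or neuropilin with the lower mean in A549-TIPARP. Its value was -0.074 without A549-GFP replicate 2 and -0.47 without replicate 3. Without that replicate 3, only PLXNA3 and PLXND1 of the analysed plexins and neuropilins had the higher mean in A549-TIPARP.

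PLXNA3, which carries the signal of secreted semaphorins together with neuropilins, was the plexin past 2-fold. It was at the floor in A549-GFP replicates 1 and 3 but at 4.02 TPM in replicate 2, and at 4.05, 2.51 and 5.73 TPM in A549-TIPARP. The lines overlapped, because A549-GFP replicate 2 was above A549-TIPARP replicate 2. The log2 fold change was 1.29, or 2.44-fold, and the limma difference was 0.86 ± 0.41 on log2(TPM + 1) (SE, unadjusted p = 0.0654, adjusted p = 0.994). With A549-GFP replicate 2 left out the log2 fold change as listed was 1.96, whereas leaving out replicate 1 or 3 of that line gave 0.95, and each of these values is a lower bound because of the control libraries at the floor. PLXNA3 lies at chrX:154458281-154477779, and an exon of LAGE3 on the other strand overlaps its exons, so the reads of these genes may likewise not be told apart.

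The other plexins ranged over a wide span of levels with small differences. PLXNB1 had 19.6 to 32.3 TPM in A549-GFP and 18.2 to 32.4 TPM in A549-TIPARP. PLXND1, the receptor of SEMA3E in endothelial cells, had 12.3 to 21.7 TPM in A549-GFP and 20.8 to 21.5 TPM in A549-TIPARP, the lowest library being A549-GFP replicate 2. PLXNA1 (6.90 to 9.78 TPM against 7.77 to 9.40 TPM) and PLXNA2 (1.67 to 5.197 TPM against 2.72 to 3.54 TPM) overlapped with log2 fold changes of 0.04 and 0.11. PLXNC1 was at 1.04 TPM in A549-GFP replicate 1 and at the floor elsewhere, and PLXNA4 and PLXNB3 were at the floor.

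Of the Slit and Robo genes, only the receptors ROBO1 and ROBO3 were analysed. ROBO1, a receptor of Slits, was at 9.51, 9.10 and 7.33 TPM in A549-GFP and at 8.54, 8.52 and 8.01 TPM in A549-TIPARP, a log2 fold change of -0.04 with overlap. ROBO3 was at 1.48, 3.00 and 1.95 TPM in A549-GFP and at 2.80, 2.84 and 3.79 TPM in A549-TIPARP, where the log2 fold change was 0.60 and A549-GFP replicate 2 lay within the range of A549-TIPARP. SLIT1 reached 1.03 TPM in A549-GFP replicate 2, and SLIT2, SLIT3, ROBO2 and ROBO4 were at the floor, the last 2 being a neuronal and an endothelial receptor.

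Among netrins and UNC5 receptors, NTN4 and UNC5B were analysed. NTN4, a netrin of basement membranes, was at 9.26, 23.8 and 6.45 TPM in A549-GFP and at 12.4, 16.8 and 16.7 TPM in A549-TIPARP. The log2 fold change of NTN4 was 0.43, the largest positive value among members with a mean of 10 TPM or more, but A549-GFP replicate 2 was the highest of all libraries. Without it the log2 fold change was 0.97, with an adjusted p of 0.152 in limma. Without A549-GFP replicate 3 the log2 fold change was 0.028, and without replicate 1 it was 0.29. UNC5B, a netrin receptor that is prominent in endothelial cells, had the most negative value of all members, a log2 fold change of -0.58. UNC5B was at 1.02 TPM, 3.30 TPM and the floor in A549-GFP and at the floor throughout A549-TIPARP. Only A549-GFP replicate 2 was above 2 TPM, and without it the gene did not pass the filter. NTN5 reached 1.90 TPM at most, and NTN1, NTN3, UNC5A, UNC5C and UNC5D were at the floor.

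The members were rich in G and C. The median content was 60.3% in the members, from 36.7% to 69.7%, and 48.3% in all analysed genes. Pearson's r between content and log2 fold change was -0.046 across 33 members and 0.23 across 12951 genes; genes of the same libraries are not independent. In the bin from 60 to 65%, which held 17 members, their median log2 fold change was 0.035 and that of all genes 0.046. From 35 to 60%, the bins held only 2, 2, 2, 5 and 4 members, in rising order of content. The medians of these members were positive, from 0.18 to 0.59, while those of all genes were between -0.14 and -0.0024. The 0.59 came from the bin of SEMA3A and SEMA3C, and SEMA3A had passed the filter on TPM only through A549-TIPARP. After removal of the content trend of each library, the values of EPHB3, PLXNA3 and SEMA3A were past 2-fold, while that of SEMA3F was 0.99.

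**Figure D4:**
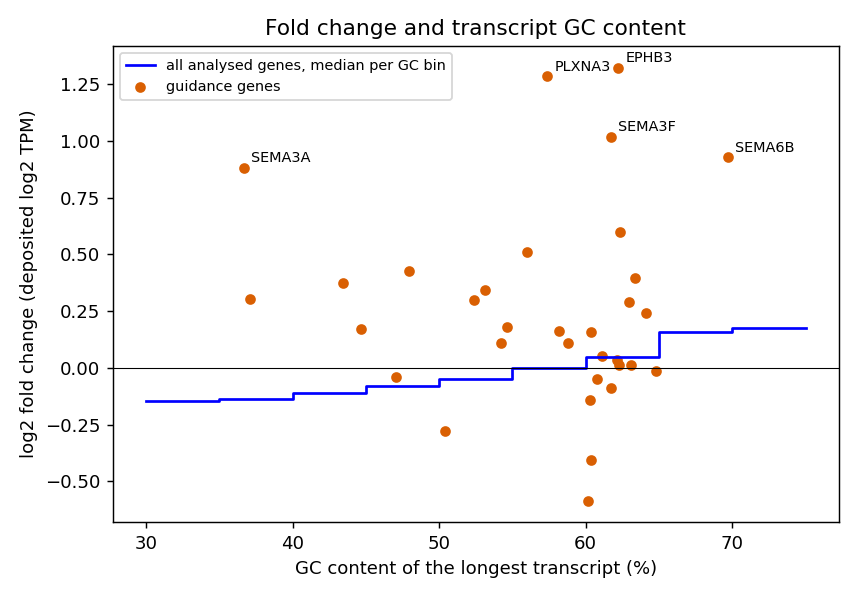
Points are the 33 analysed guidance genes, with the G and C content of the longest transcript in percent on the horizontal axis and the log2 fold change, A549-TIPARP against A549-GFP, on the vertical axis. The stepped line is the median of all analysed genes in each 5% bin; it goes from -0.15 at 30 to 35% to 0.18 at 70 to 75%, and SEMA3A is the member farthest to the left.

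Other genes of the same pathways were read from a list of 92 receptors, ligands, sheddases and cytoplasmic effectors, all present in the tables, of which 74 were analysed. None was past 2-fold, against 1.53% of all genes higher and 0.432% lower, and none was called by limma with adjustment. The higher mean was in A549-TIPARP for 32, against 40.1% of all genes, and in A549-GFP for 42, with a median log2 fold change of -0.03. The lines did not overlap in 8 with the higher and 1 with the lower value in A549-TIPARP, against 5.36% and 3.54% of all genes. Without A549-GFP replicate 2, 49 of 73 (67.1%) had the higher mean in A549-TIPARP, against 56.7% of all genes, and 17 were separated upwards (23.3%), against 21.5%. With an unadjusted p under 0.05 in limma, 4, among them DPYSL5, were higher and 1 was lower in A549-TIPARP, beside the shares of 2.97% and 0.88% of all genes given above. GIPC1, an adaptor that binds the tail of NRP1, was at 122, 131 and 135 TPM in A549-GFP and at 218, 191 and 191 TPM in A549-TIPARP. GIPC1 had a log2 fold change of 0.62, or 1.54-fold (limma adjusted p = 0.639).

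The other effectors with such a p were MICAL1, FARP1 and DPYSL5, which act below plexins and neuropilins. MICAL1, an oxidoreductase of actin, was at 5.92, 8.87 and 8.14 TPM in A549-GFP and at 11.3, 10.2 and 16.2 TPM in A549-TIPARP. FARP1 was at 7.07, 6.83 and 5.52 TPM in A549-GFP and at 10.5, 9.14 and 11.7 TPM in A549-TIPARP. DPYSL5, of the collapsin response mediator family, was at the floor in A549-GFP and at 1.78, 2.16 and 1.48 TPM in A549-TIPARP. DPYSL5 had passed the filter on TPM only through A549-TIPARP, which favoured its difference. All 3 were separated between the lines, and the adjusted p of each in limma was 0.994. VEGFC, a vascular endothelial growth factor that also binds NRP2, was the lower one, at 17.9, 21.8 and 20.03 TPM in A549-GFP and at 9.36, 12.3 and 13.4 TPM in A549-TIPARP. VEGFC had a log2 fold change of -0.78 (limma adjusted p = 0.856).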

How the data were processed

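RNA extracted with TRIzol was made into TruSeq stranded mRNA libraries and sequenced paired-end on a NovaSeq instrument. The authors used Strand NGS at default settings for alignment to the transcriptome of hg38, and the deposited tables, 1 a library, hold log2 TPM values, with TPM of 1 or less set to 1. The release of annotation, and how reads of several genes were handled, were not given in the sources used here. Groups and replicate numbers were taken from the sample titles.

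A gene was analysed if any of the 6 libraries had it above 2 TPM. Fold changes were differences of the mean deposited log2 values. limma 3.58.1 in R 4.3.3 was fitted with a variance trend on log2(TPM + 1) to all 13181 genes, with Benjamini-Hochberg adjustment at 0.05, two-sided. The pseudocount understates the changes of low genes in the limma differences. Tools for counts were not run, since no counts were given.

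Members, lists and tests were chosen with earlier results of these data known. Named in full were members past 2-fold or with an unadjusted p under 0.05 and, per family, the 2 most abundant and the most positive and most negative; 18 members met this rule, and the others were described to account for every member. Of the pathway partners, those past 2-fold and up to 5 each way by an unadjusted p under 0.05 were named. Gene positions came from GENCODE 44, matched by symbol, and upstream windows from RefSeq. Transcript G and C content came from the longest GENCODE 44 transcript, matched by gene identifier and, where that failed, by symbol. The limma script was checked on simulated data. Alternatives were pseudocounts of 1 and 0.1, arithmetic means, other filters, median-ratio rescaling, a lowess correction for G and C content (span 0.3), limma without trend or without pseudocount, a replicate block and each library left out.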

Additional observations from a re-analysis of the deposited data

How the results depend on the processing

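No member had an adjusted p under 0.05 in limma under any alternative, and no member was past 2-fold lower. The count past 2-fold higher was 3, but it was 0 with a pseudocount of 1 on the log2 scale, by the construction of that scale, against 0.592% of all genes. It was 2 with a pseudocount of 0.1 or with TPM above 2 in at least 3 libraries, against 1.33% and 1.40%, and between 3 and 4 with each library left out, against 1.73% to 3.00%. EPHB3 was among them each time a library was left out, while SEMA6B took the place of PLXNA3 without A549-GFP replicate 1 or 3, and SEMA3A and SEMA6B that of SEMA3F without A549-TIPARP replicate 3. Members separated upwards numbered 6, against 5.36% of all genes, and between 6 and 19 with each library left out, against 6.50% to 21.5%, the 19 without A549-GFP replicate 2. With TPM above 2 in at least 3 libraries there were 4, against 5.08%, as SEMA3A and SEMA3F did not pass. Members separated downwards numbered 0, against 3.54%, and up to 3 with a library left out, the 3 without A549-GFP replicate 3, against 23.6%. The median log2 fold change was 0.17 and lay between 0.034 and 0.40 with each library left out. Median-ratio rescaling, gave a median of 0.24 and 29 of 34 members with the higher mean, against 50.1% of all genes, and correction for G and C content gave 0.18 and 23 of 33, against 50.6%.

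The titles carry the same experiment numbers in both lines, and whether same-numbered libraries belong together was not given. Their deviations from the mean of their line had correlations of 0.41, -0.49 and -0.36. Deviations within a line cancel out, so these correlations are linked and cannot show whether the libraries were paired. With the replicate block, no member was called, 2 had an unadjusted p under 0.05 with the higher value in A549-TIPARP, against 2.25% of all genes, and the lowest adjusted p was 0.999.

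The sign turned in 15 members and in none of the other 18 wherever they were analysed. UNC5B was not analysed without A549-GFP replicate 2, SEMA3A not without A549-TIPARP replicate 2, and UNC5B, SEMA3A, SEMA3F and EPHA10 not under the stricter filter. With arithmetic means of TPM it turned for EFNA1 (-0.15), PLXNA2 (-0.036) and PLXNB2 (-0.034). With median-ratio rescaling it turned for EPHB4 (0.018), ROBO1 (0.024) and SEMA3B (0.052). With correction for G and C content, with or without the replicate block, it turned for PLXNA1 (-0.0098), PLXNB1 (-0.034), PLXNB2 (-0.043) and ROBO1 (0.034). With each library left out, the ranges were -0.21 to 0.93 for EFNA1, -0.41 to 0.080 for EFNA3, -0.72 to 0.072 for EFNB1, -0.28 to 0.0056 for EPHA2, -0.22 to 0.27 for EPHB4 and -0.098 to 0.52 for NRP1. They were -0.11 to 0.14 for PLXNA1, -0.29 to 0.53 for PLXNA2, -0.21 to 0.24 for PLXNB1, -0.16 to 0.26 for PLXNB2, -0.16 to 0.032 for ROBO1, -0.22 to 0.32 for SEMA3B, -0.089 to 0.21 for SEMA4B, -0.015 to 0.28 for SEMA4G and -0.072 to 0.53 for SEMA6C. Tests on counts, and filters on counts, were not run because the tables hold log2 TPM. The floor at 1 TPM limits every value under about 2 TPM.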

Other observations

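At a mean of 10 TPM or more there were 17 members, 12 of them with the higher mean in A549-TIPARP, against 37.6% of all genes of that level, with log2 fold changes from -0.40 to 0.43 and a median of 0.11, against -0.074. None of these was separated upwards, against 3.99% of all genes of that level, or beyond 0.5 on the log2 scale, against 7.53%. Under 10 TPM there were 16 members, 13 of them with the higher mean, against 43.97% of all genes of that level, with log2 fold changes from -0.58 to 1.32 and a median of 0.37, against -0.052. Of these, 6 were separated upwards, against 7.48% of all genes of that level, and 8 were beyond 0.5, against 20.1%. SEMA3A and SEMA3F, among the 6, had passed the filter only through A549-TIPARP. Without A549-GFP replicate 2, 8 of the 17 members and 11 of the 15 that remained of the 16 were separated upwards, against 19.0% and 25.6% of all genes of those levels, and 4 and 9 were beyond 0.5, against 9.98% and 26.9%. Of those 11, EPHA10, PLXNA3, ROBO3, SEMA3A and SEMA3F were then above 2 TPM only in A549-TIPARP. The level of 10 TPM was chosen after the values were seen.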
